A study of Mus musculus with 2 samples.

Results

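UPF1 binding to RNA was examined in 9 genes of lysophospholipid signalling: 5 phosphatases (Plpp1, Plpp2, Plpp3, Plpp5 and Plpp6), the sphingosine 1-phosphate receptors S1pr1 and S1pr2, and the lysophosphatidic acid receptors Lpar1 and Lpar4. UPF1 is the RNA helicase of nonsense-mediated decay, the pathway that removes transcripts whose translation stops too early. Binding was mapped by enhanced crosslinking and immunoprecipitation (eCLIP), in which RNA fragments recovered with an antibody to UPF1 are sequenced beside an input made without that selection. The resulting list holds clusters, which are stretches of RNA where immunoprecipitate reads pile up, each with a log2 fold of immunoprecipitate over input. The members' clusters were those that overlapped the RefSeq locus of the gene in the mouse assembly GRCm38 (mm10) and lay on the strand of the gene. The gene set was put together with the folds of these data known, so it counts as selected on the same immunoprecipitate-over-input folds that are described. The rule gave 60 of the 123349 clusters listed, in 7 of the 9 genes. Plpp2 and Lpar1 had none.

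The cells were mouse neural progenitor cells from cortex with the genotype Upf2fl/fl, a loxP-flanked allele of the UPF1 partner Upf2, and both libraries carry the label MOCK, which the labels do not explain. The immunoprecipitate and the input, 1 library each, share genotype, tissue and cell type. There was no replicate, so no spread between cultures could be measured and no p-value across genes was computed. Every fold below describes this pair of libraries and tests nothing.

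Lysophosphatidic acid (LPA) and sphingosine 1-phosphate (S1P) are small lipids with a phosphate head that act outside the cell through G protein-coupled receptors. The receptors signal through heterotrimeric G proteins to small GTPases, adenylyl cyclase and phospholipase C. Lipid phosphate phosphatases of the Plpp family remove the phosphate and so end the signal. In the developing cortex LPA is known for its effects on progenitor cells of the ventricular zone, where the receptor Lpar1 was originally described.

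A cluster was called enriched when its log2 fold was at least 3 and its −log10 p, as the authors' deposited table gives it, was at least 3. An enriched cluster was found in 2 of the 9 genes, Plpp3 and S1pr1, or 2 of the 7 with any cluster. Over all 10146 genes with a cluster on their strand, 32.8% had an enriched one. Of the 60 member clusters 24 were enriched, 40.0% (Wilson 95% interval 28.6 to 52.6, which treats clusters as independent although those of 1 gene are not), where 11.6% of all clusters were. Plpp3 held 19 of these 24 and S1pr1 the other 5, so the share reflects those genes. Taking each gene at its best cluster, the 7 genes had a median log2 fold of 2.98, and all genes with a cluster 2.44. Since the genes were selected on this contrast, nothing is read from these shares.

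**Figure D1:**
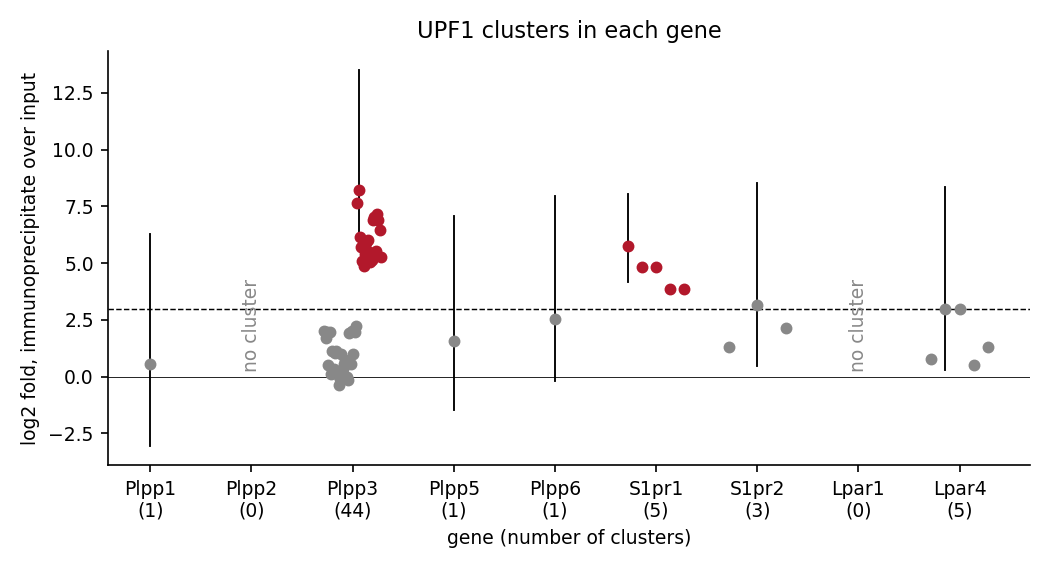
Log2 fold of each cluster (points, red where enriched) in the 9 genes, with the number of clusters under each name and, for the highest cluster of each gene, the exact 95% counting interval as a bar. The dashed line marks a log2 fold of 3. Only Plpp3 and S1pr1 have red points, and Plpp2 and Lpar1 have no cluster.

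Read counts behind the folds were reconstructed from the steps of the deposited fold and p, and 55 of the 60 member clusters could be given whole counts. The remaining 5 were 4 clusters of Plpp3 with a fold below 0 and 1 at the cap of the p column. The reconstruction assumes that the commonest fold, 0.56, stands for 3 reads against 1, under which the immunoprecipitate would hold 2.03 times the reads of the input. Each fold interval is the exact 95% interval (Clopper-Pearson) of those counts and covers counting error only. Where the input count is 1, the input may have held no read. With 1 input read, 17 immunoprecipitate reads were needed for a log2 fold of 3 and 24 for both thresholds. A cluster with fewer reads could therefore not be called, whatever its true fold.

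Plpp3 (gene ID 67916, chromosome 4, 105157347 to 105232767, plus strand) encodes a phosphatase of the plasma membrane that hydrolyses LPA, S1P and other lipid phosphates. It had 44 clusters covering 2859 nt, or 3.79% of its 75421-nt locus, and no other annotated locus lies under them. The clusters formed separate populations along the gene. In the last 5000 nt all 19 were enriched, with log2 folds from 4.89 to 8.23 and a median of 5.90. The 25 upstream of that were all below 3, with a highest fold of 2.21. No cluster of Plpp3 lay between 2.21 and 4.89. A stretch of 11660 nt without any cluster separated the last cluster that was not enriched from the enriched block.

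**Figure D2:**
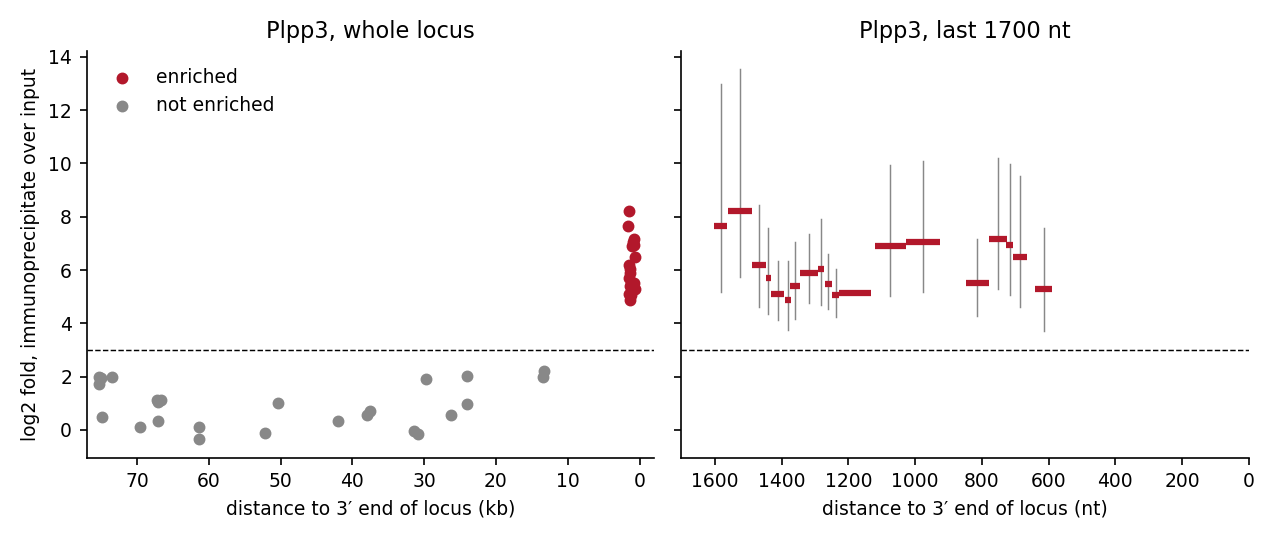
Log2 fold of the 44 Plpp3 clusters against the distance from the cluster midpoint to the 3′ end of the locus, over the whole locus (left, in kb) and near its end (right, in nt, where red bars span the cluster widths and grey lines are exact 95% counting intervals, absent for the cluster at the p cap). All 19 red clusters sit at the right-hand end above the dashed line at 3, and the grey ones stay at or below 2.21.

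The enriched block ran from 105231166 to 105232178, a span of 1013 nt of which 902 nt lay in clusters. It ended 589 nt before the annotated 3′ end, and no cluster lay in those 589 nt. Among 1088 protein-coding genes with 5 or more enriched clusters the span from the first to the last had a median of 1431 nt (quartiles 976 and 2196), and the Plpp3 block lay between the quartiles. Its nearest enriched midpoint to the 3′ end, at 615 nt, was also close to the median of 701 nt over 3306 protein-coding genes with an enriched cluster (quartiles 269 and 1793). The 902 nt in enriched clusters placed Plpp3 at rank 235 among all genes, while its highest fold placed it at rank 3. By its rank in this list Plpp3 was thus higher for the size of the fold than for the length of bound RNA.

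The clusters at the upstream edge of the block had the highest folds. The cluster at 105231205 to 105231276 reached 8.23 (interval 5.74 to 13.53) from 610 immunoprecipitate reads against 1. The cluster just upstream of it, at 105231166 to 105231204, reached 7.66 (interval 5.17 to 12.97) from 411 reads against 1. They were the only enriched Plpp3 clusters with an input count of 1. Without clusters of that input count the highest fold of the gene was 7.16 (interval 5.30 to 10.21), from 583 reads against 2 at 105231988 to 105232041.

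The next 10 clusters, with midpoints 1468 to 1179 nt from the 3′ end, had folds from 4.89 to 6.17. In the following 7, from 1074 to 615 nt, folds ranged from 5.27 to 7.16. This dip in the fold was not a dip in immunoprecipitate reads. The cluster with the most reconstructed reads in the whole gene, 818, lay in the dip at 105231518 to 105231540 and had a fold of 5.07 (interval 4.25 to 6.03), because 12 input reads lay there too. Input counts ran from 3 to 12 in the dip, against 1 in each of the edge clusters and 2 to 5 downstream of it. The intervals of the edge clusters overlap those in the dip. Overlap alone does not settle the order of folds within the block, which was not tested. Of the 18 neighbouring pairs in the block 15 touch, and a read that spans a border may be counted in both clusters, so these clusters are not separate measurements. The cluster at the p cap, 105231541 to 105231635, had a fold of 5.12, and its counts were not reconstructed.

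**Figure D3:**
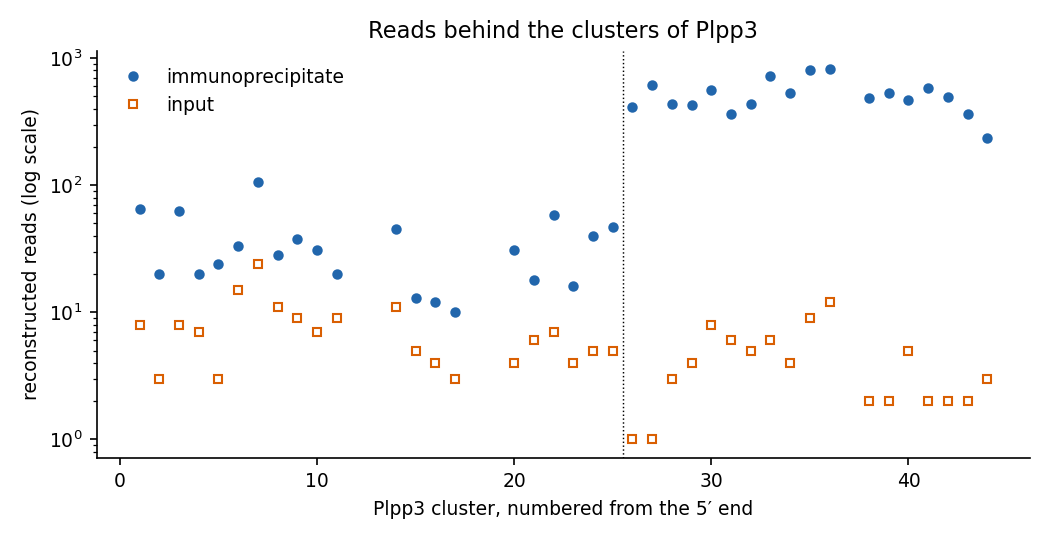
Reconstructed immunoprecipitate reads (filled circles) and input reads (open squares) of 39 Plpp3 clusters in order from the 5′ end, on a log scale. The dotted line separates the 25 upstream clusters from the 19 enriched ones. Immunoprecipitate reads are at most 106 on its left and at least 236 on its right, while input reads do not rise across it.

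Upstream of the block the folds of Plpp3 were low. The first 1000 nt held 4 clusters, with folds of 2.00, 1.71, 1.95 and 0.49 and between 20 and 65 immunoprecipitate reads against 3 to 8 input reads. Their median of 1.83 compares with 0.78 over 2478 clusters in the first 1000 nt of protein-coding loci at least 10000 nt long, of which 2.22% were enriched. In these 4 clusters, 2 had a −log10 p of at least 3, but neither reached a log2 fold of 3. The other 21 upstream clusters, spread over the interior of the locus, had folds from -0.35 to 2.21 with a median of 0.71. Interior clusters of such loci had a median of 0.56. Of the 21, 4 lay below 0, and 3 had a −log10 p of at least 3. The highest, 2.21 (interval 0.88 to 3.90) at 105219407 to 105219505, was also the nearest to the enriched block. Exons could not be told from introns here, so it is not known which of these clusters lie in spliced RNA.

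Median immunoprecipitate reads were 490 per cluster in the enriched block and 31 in the interior, whereas median input reads were 3.5 and 6, over the clusters with reconstructed counts. The clusters of the block are narrower, and per 100 nt of such clusters the block had 1152 immunoprecipitate reads and 9.54 input reads, against 43.9 and 10.2 in the interior. Reads that span a border may be counted more than once in these sums. The higher folds at the 3′ end thus came with more immunoprecipitate reads at a similar input per nucleotide. Over all enriched clusters with reconstructed counts the median was 63 immunoprecipitate reads (quartiles 38 and 117), and every reconstructed cluster of the Plpp3 block, at 236 or more, lay above that upper quartile.

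The only stretch under a member cluster whose sequence was at hand is the start of the 5′-most Plpp3 cluster, which begins 24 nt after the annotated start of the locus and had a fold of 2.00 (interval 0.94 to 3.27) from 65 reads against 8. It lies at the 5′ end of the locus, in a cluster that was not called enriched, and is shown only because its sequence was at hand. The RefSeq GRCm38.p6 sequence at chr4:105157367-105157396, plus strand, is given 5′ to 3′ with the 26 bases inside the cluster in capitals, of which 80.8% are G or C.
Plpp3 5′ cluster: acagCGGCAGCCCGGGCGGCAGCAGCAGGA

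The other phosphatases had a single cluster each or none. Plpp1, which also dephosphorylates extracellular lipid phosphates (chromosome 13, 112800777 to 112867894), had 1 cluster in its 67118-nt locus, with 3 immunoprecipitate reads against 1 and a fold of 0.56 (interval -3.08 to 6.27). It lay 43948 nt from the 3′ end. Plpp5 (chromosome 8, 25720043 to 25724887) had 1 cluster, 164 nt from its 3′ end, with 6 reads against 1 and a fold of 1.56 (interval -1.48 to 7.08). Plpp6, which acts on presqualene and other isoprenoid diphosphates (chromosome 19, 28963920 to 28966801), had 1 cluster with 12 reads against 1 and a fold of 2.56 (interval -0.20 to 7.98), 1163 nt from the 3′ end. The locus of 4430402I18Rik, on the opposite strand, also covers the Plpp6 cluster. Each of these intervals spans 0 and reaches far beyond 3, so at this depth neither enrichment nor its absence was detectable.

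Among all genes with 1 cluster few passed: 1.33% of 1425 had an enriched one, and their median fold was 0.56, the value of 3 reads against 1. The fold of Plpp6 equalled the 95th percentile of that class (2.56), that of Plpp5 lay above its upper quartile (1.30), and that of Plpp1 at its median. Plpp2 (chromosome 10, 79526424 to 79533787), the remaining phosphatase, had no cluster on either strand. Of 21900 protein-coding loci 44.4% had a cluster on their strand. Because clusters were called on the immunoprecipitate and no expression table was used here, an RNA that was absent cannot be told from one that was present and not bound.

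S1pr1 (gene ID 13609, chromosome 3, 115710433 to 115715055, minus strand) encodes the Gi-coupled S1P receptor best known from lymphocytes and endothelium. All 5 of its clusters were enriched. Of 3578 genes with 2 to 5 clusters, 15.4% had any enriched cluster and 1.87% had all of theirs enriched. S1pr1 was selected with its folds known, so nothing is read from its place among them. From the 5′ side the folds were 5.75 (interval 4.19 to 8.03), 4.82, 4.84, 3.88 and 3.87 (interval 2.27 to 6.17). The immunoprecipitate reads in the same order were 328, 172, 175, 90 and 89, and the input count was 3 in each. The highest fold stood at the cluster farthest from the 3′ end, 1192 nt away, and the lowest at the nearest, 260 nt away, but the intervals of the 5 overlap.

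These S1pr1 clusters covered 598 nt, 12.9% of a 4623-nt locus, within a span of 1080 nt, close to that of the Plpp3 block. The clusters differed in width, and per nucleotide of cluster the reads were closer together, at 1.58, 1.70, 1.41, 1.17 and 1.00. Unlike in Plpp3, no cluster was found in the 5′ part of the locus, the first midpoint lying 3431 nt from the 5′ end. No S1pr1 cluster had an input count of 1. By its highest fold S1pr1 ranked 466 of 10146 genes (95.4th percentile).

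S1pr2 (gene ID 14739, chromosome 9, 20965952 to 20976793, minus strand), an S1P receptor coupled to G12 and G13 as well as Gi and Gq, had 3 clusters and none enriched. Their folds were 1.30, 3.15 and 2.15 from 5, 18 and 9 immunoprecipitate reads, each against 1 input read. The middle one, at 20966652 to 20966779, passed the fold threshold but not the p threshold (−log10 p 2.16, fold interval 0.48 to 8.53). The enriched member cluster of lowest fold was that of S1pr1 at 3.87, with a −log10 p of 11.6. All 3 S1pr2 clusters lay within 1226 nt of the 3′ end, as the S1pr1 clusters did.

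Lpar4 (gene ID 78134, chromosome X, 106920625 to 106933899, plus strand), an LPA receptor of the purinergic receptor cluster rather than the EDG family, had 5 clusters and none enriched. From the 5′ side the folds were 0.78, 2.98, 2.98, 0.49 and 1.30. The pair with equal folds differed in depth, with 16 reads against 1 (−log10 p 1.75) and 32 against 2 (−log10 p 3.47). The deeper one, at 106932193 to 106932333, passed the p threshold and missed the fold threshold, with an interval of 1.01 to 6.08. Its fold was the highest among member clusters that passed the p threshold without being called. The clusters of this pair touch and had midpoints 1738 and 1636 nt from the 3′ end. Those nearest the end, at 702 and 497 nt, had the lower folds of 0.49 and 1.30. Among the thresholds tried, only Lpar4 changed its call. With a log2 fold of at least 2 it had an enriched cluster, as 34.9% of all genes with a cluster then did. No p threshold looser than 3 was tried, and the S1pr2 cluster at 3.15 failed only on its −log10 p of 2.16.

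Lpar1 (chromosome 4, 58435252 to 58554027), an LPA receptor of the EDG family, had no cluster on either strand of its 118776-nt locus. Of the 2429 protein-coding loci at least 100 kb long, 31.2% had no cluster on their strand. No cluster means that no pile-up of immunoprecipitate reads was listed, and says nothing of whether the RNA was made.

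**Figure D4:**
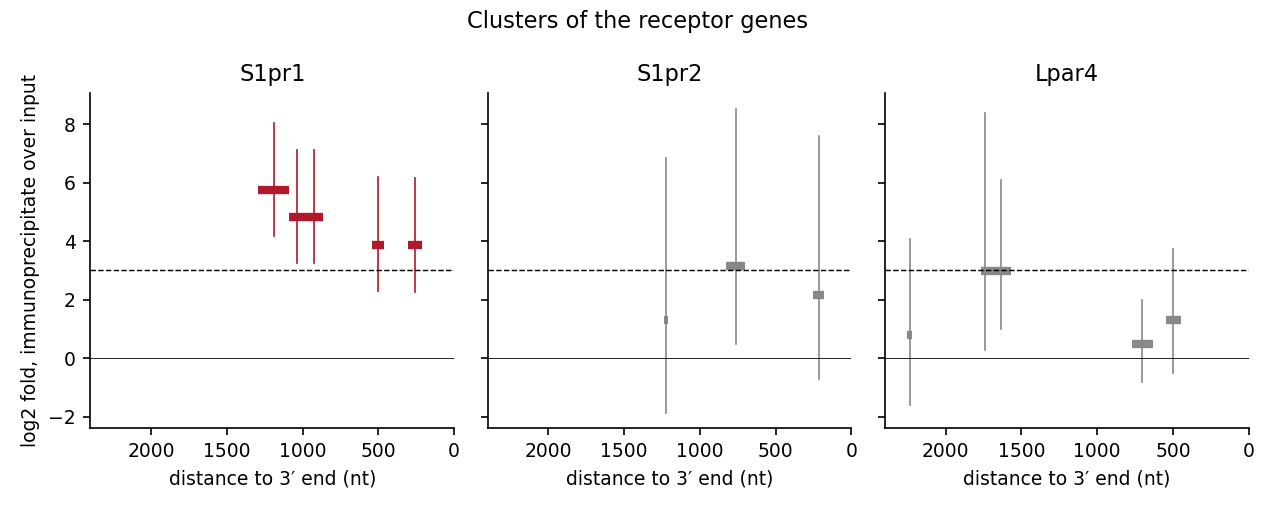
Log2 fold of the clusters of S1pr1, S1pr2 and Lpar4 against distance to the 3′ end of the locus in nt. Horizontal bars span the cluster width, vertical lines are exact 95% counting intervals, red marks enriched clusters and the dashed line a log2 fold of 3. The intervals of S1pr1 start at 2.27 or higher, and those of S1pr2 all reach beyond 3.

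All 24 enriched member clusters lay within 5000 nt of the 3′ end, and also within 2000 nt. With a log2 fold of at least 2 in the call, 25 of 27 did, and the other 2 lay in the interior of Plpp3. Over all protein-coding genes 91.6% of enriched clusters lay within 5000 nt. The S1pr1 locus is 4623 nt long, so its 5 enriched clusters could not have lain beyond 5000 nt, unlike the 19 of Plpp3. The loci of Plpp5 and Plpp6 are also shorter than 5000 nt. No share within 2000 nt over all genes is given here. Of the 34 member clusters within 5000 nt, 24 were enriched (70.6%), and the other 10 belonged to Plpp5, Plpp6, S1pr2 and Lpar4. Over all protein-coding genes 34.2% of clusters within 5000 nt of the 3′ end were enriched, and 1.44% of those farther away. The members were selected with these folds known, and 19 of the 24 are clusters of Plpp3, which are not independent. Nothing is therefore read from the 70.6%. The intervals of S1pr1 and S1pr2, and of S1pr1 and Lpar4, overlap at their highest clusters, and a difference in fold between these receptors was not tested. They differed in depth, with 89 to 328 immunoprecipitate reads per cluster in S1pr1, 5 to 18 in S1pr2 and 7 to 32 in Lpar4.

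**Figure D5:**
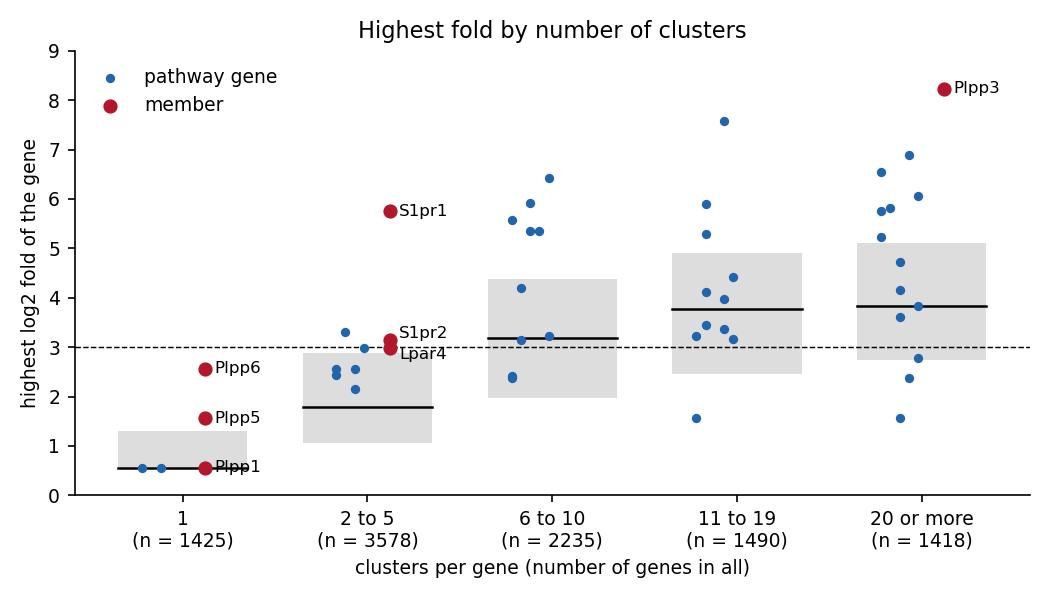
Highest log2 fold per gene by the number of clusters in the gene, with grey boxes from the lower to the upper quartile over all genes of that class and a black line at the median. Red points are the 7 members with a cluster and blue points the 42 other pathway genes with one, and the dashed line marks 3. Plpp3 at 8.23 and S1pr1 at 5.75 lie far above the boxes of their classes, which end at 5.11 and 2.88.

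Against genes with a like number of clusters, Plpp3 lay above the 95th percentile of genes with 20 or more clusters (6.46), and S1pr1 above that of genes with 2 to 5 (4.53). S1pr2 and Lpar4 lay above the upper quartile of the latter class (2.88) and under its 95th percentile. These are positions within this pair of libraries. The members were selected with these folds known, so nothing is read from the positions. Among 3258 genes with at least 10 clusters, those most like Plpp3 in the ranks of highest fold, share of enriched clusters and nucleotides in enriched clusters were Tnks, Pygb, Fbxw8, Galnt16 and Stat3. Tnks, a tankyrase, had 12 of 31 clusters enriched, 941 nt and a highest fold of 6.95. Stat3, a transcription factor of cytokine signalling, had 13 of 24, 901 nt and 7.19. Plpp3 had 19 of 44 and 902 nt, and its highest fold of 8.23 compares with 6.48 to 7.69 in these 5. The order is not resolved, since the Plpp3 value rests on 1 input read and was 7.16 without clusters of that input count.

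The rest of the pathway was taken from a list of 63 other genes, of which 42 had a cluster and 24 an enriched one. That is 57.1% of those with a cluster, with a median highest fold of 3.72, where all genes had 32.8% and 2.44. The share also differed with cluster number over all genes, and the list was not matched on it. That share was 1.33% for genes with 1 cluster, 15.4% with 2 to 5, 45.5% with 6 to 10, 58.3% with 11 to 19 and 61.2% with 20 or more. The list held genes of every class, so its 57.1% has no single class to be set beside. Downstream signalling held most of them: 14 of 22 genes with a cluster. Gnai2, a Gi alpha subunit, reached 7.57 (interval 5.09 to 12.88) with 14 of 18 clusters enriched. Arhgef12, a guanine nucleotide exchange factor driven by G12 and G13, reached 6.55, Rac1, a small GTPase of the cytoskeleton, 5.92, Wwtr1, the Hippo coactivator TAZ, 5.81, Gnaq 5.76 and Gna12 5.57. Rock1, a kinase of actomyosin contraction, had 0 of 36 clusters enriched and reached 2.37. The exchange factors Arhgef11 and Arhgef1 had 34 and 17 with none enriched, reaching 2.78 and 3.37, and Mrtfa, a coactivator of SRF, had 14 and reached 3.22. The highest clusters of Arhgef1 and Mrtfa passed the fold threshold but not the p threshold (−log10 p 2.59 and 2.16), each with 1 input read.

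Genes that remove or move lysophospholipids followed by number, with 6 of 9. As a share this was 66.7%, beside 63.6% for downstream signalling. Sgpl1, the lyase that cleaves S1P irreversibly, reached 5.89 (interval 4.02 to 8.94) and had 11 enriched clusters of 14, and Sgpp1, an intracellular S1P phosphatase, had 3 of 6 and reached 5.35. Agpat3, which acylates lysophosphatidic acid, reached 6.06, and Abca1, a lipid exporter, 6.88 with 15 of 67 clusters enriched. Among enzymes that make the signals 1 of 4 was enriched: Gdpd1, a lysophospholipase D, at 6.42 (interval 3.92 to 11.73). Enpp2, which encodes autotaxin, the secreted enzyme that makes most extracellular LPA, had 0 of 22 clusters enriched and reached 1.56. Of the S1P-forming kinases, named after their values were seen, Sphk1 had no cluster and Sphk2 had 4, with none enriched and a highest fold of 2.15.

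Among the phosphatase relatives, of 5 with a cluster 3 were enriched: Plppr2 reached 5.35 (interval 2.83 to 10.67), with 5 enriched clusters of 9, and, named after their values were seen, Plppr1 and Plppr5 had 1 enriched cluster each, of 115 and 19. Plppr proteins are neuronal relatives that lack the catalytic residues. Plpp4, a relative with 17 clusters, had none enriched and reached 1.56. Of 10 other receptors only Lpar2 and S1pr3 had a cluster, named after their values were seen, and neither was enriched (0.56 and 2.44). With the members added, the lists held 14 LPA, S1P and related receptors, of which only S1pr1, S1pr2, Lpar4, Lpar2 and S1pr3 had a cluster. Of these only S1pr1, a member selected with its folds known, had an enriched one. Among all genes with a cluster 32.8% did, and 15.4% of those with 2 to 5 clusters, so nothing is read from this count.

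Markers were checked for the labelled cell type. All 11 progenitor markers had a cluster and 7 an enriched one, with a median highest fold of 3.50. Of the astrocyte markers 4 of 5 had a cluster and 4 an enriched one (median 5.10), and of the oligodendrocyte-lineage markers 5 of 6 had a cluster and 5 an enriched one (median 5.69). Of the neuronal markers 4 of 6 had a cluster and 2 an enriched one (median 3.62). The 2 enriched clusters of the progenitor marker Sox2 and the 1 of the astrocyte marker Aldh1l1 also lay in another locus. They cannot be assigned to these markers alone. Over all genes with a cluster 32.8% had an enriched one. This share was 1.33% for genes with 1 cluster, 15.4% with 2 to 5, 45.5% with 6 to 10, 58.3% with 11 to 19 and 61.2% with 20 or more. The markers were not matched on cluster number. Markers of microglia (0 of 5) and endothelium (0 of 5) had no cluster, and those of fibroblasts and pericytes had 1 of 5 with none enriched. In such bulk material more cells of a type and more RNA per cell cannot be told apart, and the part of RNA from astrocytes, oligodendrocyte-lineage cells or any other cell type in the folds of Plpp3 and S1pr1 was not tested.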

How the data were processed

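The deposited file lists stranded clusters without a header. The authors' log2 fold of immunoprecipitate over input and their −log10 p were identified from the values and the usual layout of such files. UMI-tools, cutadapt, STAR and the build mm10 are listed, per the submitters' processing notes. How clusters were called and filtered and how the fold was computed is not given in the sources used here. Deposited −log10 p values are capped at 400, and they are 0 in each of the 32999 clusters whose fold is not above 0.

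Loci came from RefSeq GRCm38.p6. Strands came from the RefSeq promoter table or, for 1913 loci (Plpp1, Plpp5 and S1pr1 among them), from at least 80% of their clusters lying in no other locus. The sources gave the same strand for 99.5% of 7788 loci with both. A cluster could count for more than 1 overlapping gene. Distances are genomic, introns included, from the cluster midpoint. Promoter windows were found for 6 of the 9 genes.

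The commonest fold was taken as 3 reads against 1. Counts were those whose binomial p (under 5 reads on either side) or chi-square p with continuity correction came within 0.05 or 1% of the deposited −log10 p. Counts were found for 99.6% of 90350 clusters with a fold above 0. In simulated data 98.38% of 1978 clusters were recovered. The simulation used the same assumption about the commonest fold and the same p formulas, so it cannot check either of them. Library totals are not in the file, so depth is given as reads per cluster.

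Members and lists were chosen with earlier results of these data known. Named from the pathway list were the 12 enriched genes of highest fold and the 6 genes with the most clusters and none enriched. The 5 genes most like Plpp3 had the smallest distance over the 3 percentile ranks. Python 3.11.15, scipy 1.17.1 and pandas 2.3.3 were used.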

Additional observations from a re-analysis of the deposited data

How the results depend on the processing

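The 2 enriched members, Plpp3 and S1pr1, gave a count of 2 with a log2 fold of at least 4, with a −log10 p of at least 5, with whole clusters inside the locus, without clusters in a second locus and without input counts of 1. The count was 3 with a fold of at least 2. Enriched member clusters ranged from 22 to 27 over these settings against 24, and enriched pathway genes from 19 to 26 against 24. Of the enriched member clusters, 24 lay within 2000 nt of the 3′ end and the same number within 10000 nt, and with a fold of at least 2 the number within 5000 nt was 25 of 27. The S1pr1 locus is shorter than 5000 nt, so its clusters could change only the count within 2000 nt. The length-weighted mean fold of Plpp3 was 2.82, far below its highest fold of 8.23, since its upstream clusters enter the mean, and for S1pr1 it was 4.88 against 5.75. Without input counts of 1 the median highest fold was 5.75 over the 3 members left, against 2.98. Plpp1, Plpp5, Plpp6 and S1pr2 then have no value, and Plpp6 has none without clusters in a second locus. Depth limits Plpp1, Plpp5, Plpp6, S1pr2 and Lpar4 most. No paired analysis was possible because there is 1 immunoprecipitate and 1 input.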
